A study of Mus musculus with 42 samples.

Results

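HOXC10 and HOXC13 binding at day 3 of motor neuron differentiation was compared site by site. The members are the 10000 binding events with the highest ChIP signal in each of 2 deposited event lists, 1 for each factor. Only events on the 19 autosomes and chromosome X entered, which left 26859 HOXC10 and 115819 HOXC13 events to rank, out of 1086685 such events in the 21 event lists of the series. A top event was called shared when the other factor had an event of any rank within 100 bp, and alone when it had none. This gave 6060 HOXC10-alone and 3940 HOXC10 shared sites, and 8252 HOXC13-alone and 1748 HOXC13 shared sites.

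The data are ChIP-seq libraries from mouse embryonic stem cell lines that carry a single tagged transgene under a doxycycline (Dox) promoter, derived from the Ainv15 line with the cassette at the Hprt locus. All cells were differentiated as embryoid bodies (EBs) with 1 µM retinoic acid and 0.5 µM of the smoothened agonist SAG, received 3 µg/mL Dox on day 2, and were collected on day 3 after 24 h of Dox. The HOXC10 list pools 3 libraries, of which 1 came from the iHoxc10.V5 line and the other two from the iFlag.Hoxc10 line with a Flag antibody. The HOXC13 list pools 2 libraries, 1 from iFlag.Hoxc13 cells with the Flag antibody and 1 from iHoxc13.HA cells with an HA antibody, and the HOXC13 coding sequence was human in a mouse cell. Each factor was therefore forced on in a progenitor population from a few engineered lines, and the Hox genes of the cells themselves were left in place.

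Hox genes encode homeodomain transcription factors that assign identity along the head to tail axis. HOXC10 marks the lumbar level, where limb-innervating motor neurons form, while HOXC13 belongs to the most posterior paralog group and is known from the tail bud, hair and nails. Posterior HOX factors recognise TTTAT-like and TTTAC-like words, whereas central factors favour TAAT, and many Hox factors bind DNA next to the TALE homeodomain cofactors PBX and MEIS.

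The depth and the quality of enrichment differed between the factors. The HOXC10 libraries held 5.04, 18.2 and 21.8 M aligned reads (M, 1e6 reads), and the event caller assigned fractions of 0.017, 0.041 and 0.161 of them to signal. The third HOXC10 library thus supplied 80.9% of all HOXC10 reads assigned to signal. The HOXC13 libraries held 26.5 and 31.0 M reads with signal fractions of 0.375 and 0.327. Both lists were called against the same control library of 20.6 M reads. Because each list pools its libraries, no event has a value per library, so no value below has an error between replicates, and no test over samples was made. The lists also carry the authors' own tests between conditions, which were not used. The intervals are 95% Wilson intervals for shares and Newcombe intervals for their differences, and cover only the counting of sites. Factor, antibody, cell line and sequencing run cannot be told apart here, and an alone site is one where the other list has no event, which does not show that the other factor was absent.

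Some of the strongest sites of each class are shown with 50 bp to each side of the event, on the plus strand of mm10, with TTTAT and TTTAC on either strand (ATAAA and GTAAA on the other) in capitals. The third strongest HOXC10-alone site lay in an intron of Nell2, which encodes a secreted neuronal glycoprotein, with 1399 estimated reads and no capital letters at all.
HOXC10-alone site in Nell2 (chr15:95156971-95157071): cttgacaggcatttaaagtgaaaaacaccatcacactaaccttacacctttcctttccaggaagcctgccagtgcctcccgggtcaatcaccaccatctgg
The second strongest HOXC10-alone site lay 34 bp upstream of a Hdx transcription start site (TSS) on chromosome X, with 1407 estimated HOXC10 reads. It was the one top HOXC10 event with over 50 control reads, having 280.7, against a median of 5.6 for the top HOXC10 list.

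The 3 strongest HOXC13-alone sites had more reads, as the whole HOXC13 list did. They had 6199 estimated reads in an intron of Pip4k2a, 5652 reads 177 kb upstream of the predicted gene Gm10306, and 5457 reads 49.6 kb downstream of the TSS of Mylip. Each held at least 1 of the searched words, and the Pip4k2a site held 4 copies of TTTAT. The nearest HOXC10 events lay 9.28, 8.07 and 14.8 kb away.
HOXC13-alone site in Pip4k2a (chr2:18948394-18948494): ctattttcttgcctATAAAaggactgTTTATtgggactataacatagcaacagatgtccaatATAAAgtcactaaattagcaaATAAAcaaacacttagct
HOXC13-alone site upstream of Gm10306 (chr4:94379306-94379406): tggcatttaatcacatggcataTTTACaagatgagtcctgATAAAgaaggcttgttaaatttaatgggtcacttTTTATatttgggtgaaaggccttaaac
HOXC13-alone site downstream of the Mylip TSS (chr13:45440436-45440536): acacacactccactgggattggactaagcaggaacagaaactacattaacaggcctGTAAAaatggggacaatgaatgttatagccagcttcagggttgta

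The strongest shared sites by HOXC10 signal follow. The site in Hoxc4 was the strongest of all HOXC10 events, with 2064 estimated reads, and its HOXC13 event 24 bp away had 1580. The site in Macrod1 had 1866 HOXC10 and 2912 HOXC13 reads at the same base. The site in B3glct had 1827 HOXC10 but 294 HOXC13 reads. All 3 held TTTAT at least 2 times, and the Macrod1 site also held TTTAC.
Shared site in Hoxc4 (chr15:103035316-103035416): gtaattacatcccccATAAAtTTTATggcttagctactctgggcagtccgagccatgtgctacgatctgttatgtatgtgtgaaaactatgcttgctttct
Shared site in Macrod1 (chr19:7068351-7068451): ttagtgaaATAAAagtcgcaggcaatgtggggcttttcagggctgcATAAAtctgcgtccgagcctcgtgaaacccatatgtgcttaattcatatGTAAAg
Shared site in B3glct (chr5:149751413-149751513): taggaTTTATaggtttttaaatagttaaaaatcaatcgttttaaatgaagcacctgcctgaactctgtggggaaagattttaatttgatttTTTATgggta

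HOXC10 and HOXC13 shared a minority of their strong sites. Of the top 10000 HOXC10 events, 39.4% (95% interval 38.4 to 40.4%) had a HOXC13 event within 100 bp, beside 31.5% over the full HOXC10 list. Of the top HOXC13 events, 17.5% (16.7 to 18.2%) had a HOXC10 event, beside 7.46% over the full HOXC13 list. The windows of 100 bp around all HOXC13 events cover 0.877% of these chromosomes, and those around all HOXC10 events cover 0.204%. The difference between the factors moved with the length of the lists. With the HOXC13 list cut to the 26859 events of the HOXC10 list, the shares were 18.4% for HOXC10 and 17.5% for HOXC13. When only the top 10000 events of the other factor counted, they were 9.26% and 9.67%.

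Stronger sites were shared more often. Among the 1000 strongest HOXC10 events 58.6% (55.5 to 61.6%) were shared, and among ranks 9001 to 10000 33.4% (30.5 to 36.4%). For HOXC13 the shares were 25.9% (23.3 to 28.7%) and 13.5% (11.5 to 15.8%). Even at the very top most HOXC13 sites stood alone, with 31 of the 100 strongest shared, against 69 of the 100 strongest HOXC10 sites. The estimated read count at the edge of the top list was 104.9 for HOXC10, where 4 of 17 events with this value fell inside, and 344.8 for HOXC13, where 1 of 3 did.

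**Figure D1:**
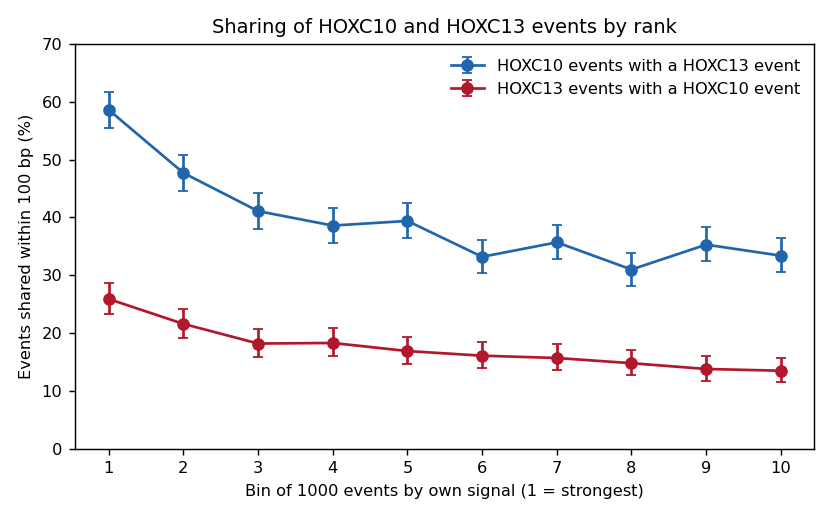
Share of HOXC10 events (blue) and HOXC13 events (red) that had an event of the other factor within 100 bp (y axis, percent), in bins of 1000 events by own signal (x axis, bin 1 strongest); bars are 95% Wilson intervals. The share fell from 58.6% to 33.4% for HOXC10 and from 25.9% to 13.5% for HOXC13 between the first and the last bin.

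Shared events lay close together. In 73.4% of the HOXC10 shared sites the HOXC13 event was called at the same base, and in 75.7% it was within 10 bp. For the HOXC13 shared sites the same base was called in 63.6%. By the comparison columns of the lists, HOXC10 and HOXC13 were called in one run with HOXC6, HOXC9, HOXA9 and HOXD9, and the caller can align events across conditions of a run, so the share at the same base is also a property of the calling. Alone sites differed in how far the other factor was. The nearest HOXC13 event lay a median of 5.18 kb from a HOXC10-alone site, and the nearest HOXC10 event a median of 32.3 kb from a HOXC13-alone site. It was over 10 kb away for 33.2% and 74.6% of the sites, respectively, with the shorter HOXC10 list on the far side of the second comparison.

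The classes differed in the sequence at their sites. The posterior HOX word TTTAT was found within 50 bp of 81.6% (80.7 to 82.4%) of HOXC13-alone sites, 77.9% of HOXC13 shared, 66.4% of HOXC10 shared and 47.7% (46.4 to 48.9%) of HOXC10-alone sites. Windows of the same length 1 kb to each side held it in 31.7 to 34.2% of cases in the 4 classes. HOXC13-alone sites exceeded HOXC10-alone sites by 33.9 percentage points (32.4 to 35.4). Over the full lists the word was present at 54.2% of HOXC10 and 78.8% of HOXC13 events.

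The HOXC13-type word TTTAC followed the same order. It was present at 51.6% (50.5 to 52.7%) of HOXC13-alone, 40.8% of HOXC13 shared, 32.2% of HOXC10 shared and 20.6% (19.6 to 21.6%) of HOXC10-alone sites. In the flanks it was present in 18.2 to 19.8%, and in those of the HOXC10-alone sites in 19.1%, close to the share at the sites themselves. The difference between HOXC13-alone and HOXC10-alone sites was 31.0 points (29.5 to 32.5). Over the full lists TTTAC was present at 24.3% of HOXC10 and 42.8% of HOXC13 events. TTTAC without TTTAT was present at 978 HOXC13-alone (11.9%) and 668 HOXC10-alone sites (95% interval 10.3 to 11.8%), a small difference (0.83 points, -0.23 to 1.88), so the gap lay almost wholly in sites that also held TTTAT. Both words occurred together at 39.8% of HOXC13-alone sites and at 9.59% of HOXC10-alone sites, and neither occurred at 6.58% and 41.3%, respectively. The longer word TTTACGA, searched on both strands and contained in TTTAC counts, had another order. It was present at 4.58% of HOXC13 shared, 3.22% of HOXC13-alone, 2.74% of HOXC10 shared and 0.347% of HOXC10-alone sites, and at 0.198 to 0.241% in the flanks. HOXC13-alone minus HOXC13 shared sites gave -1.35 points (-2.49 to -0.38). The order of TTTAC was not particular to that word. TTTAA was present at 50.8% of HOXC13-alone, 43.2% of HOXC13 shared, 37.4% of HOXC10 shared and 30.5% of HOXC10-alone sites. Its difference between the alone classes was 20.3 points (18.7 to 21.9), and its flanks held 28.8 to 30.3%. TTTAG was present at 20.6% of HOXC13-alone and 20.8% of HOXC10-alone sites.

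The word that joins a PBX and a posterior HOX half-site showed the opposite order. TGATTTAT, which also contains TTTAT, was present at 7.06% (6.44 to 7.74%) of HOXC10-alone and 1.65% (1.40 to 1.95%) of HOXC13-alone sites, a difference of 5.41 points (4.73 to 6.13). Shared sites were close to HOXC10-alone sites, with 6.83% by HOXC10 and 5.84% by HOXC13 events. HOXC10 alone and HOXC10 shared sites differed by 0.24 points (-0.80 to 1.24), an interval that includes 0. The flanks held it in 0.652 to 0.801%. Over the full lists TGATTTAT was present at 7.32% of HOXC10 and 2.48% of HOXC13 events, so the HOXC10-alone share was near that of the whole HOXC10 list. The central HOX word TAAT was frequent everywhere, at 73.4% of HOXC10-alone, 74.1% of HOXC10 shared, 71.6% of HOXC13 shared and 68.8% of HOXC13-alone sites, against 50.1 to 53.0% in the flanks.

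**Figure D2:**
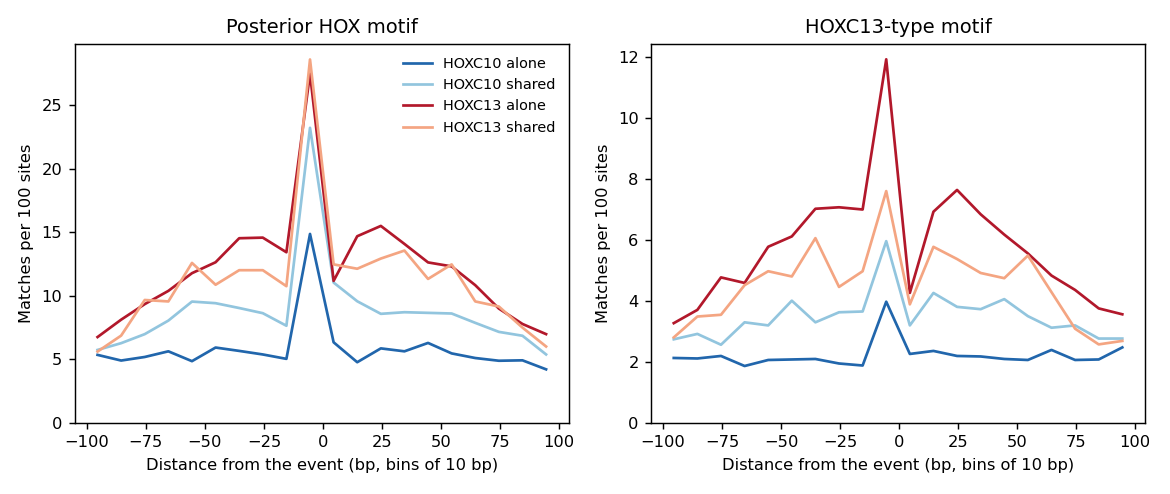
Matches to TTTAT (left, the posterior HOX motif) and to TTTAC (right, the HOXC13-type motif) on either strand per 100 sites (y axis) by distance from the event in bins of 10 bp (x axis), for the 4 classes. From 10 to 1 bp before the event there were 27.5 TTTAT matches per 100 HOXC13-alone sites and 14.9 per 100 HOXC10-alone sites, and around HOXC13-alone sites the raised level also covered the neighbouring bins, while around HOXC10-alone sites it was 4.77 at 10 to 19 bp, within the outer levels of 4.21 and 5.35.

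Around HOXC13-alone sites the words were also more frequent beside the event. Around HOXC10-alone sites the rise lay mainly in the bin from 10 to 1 bp before the event. There TTTAT had 14.9 matches per 100 HOXC10-alone sites, against 6.34 at 0 to 9 bp, in plus-strand coordinates. For HOXC13-alone sites these bins held 27.5 and 11.2, and the reason for the uneven sides was not tested. Per 10 bp, TTTAT matches per 100 HOXC13-alone sites were 14.7 at 10 to 19 bp from the event, against 6.75 and 6.98 in the outermost bins. For HOXC10-alone sites the values were 4.77, and 4.21 and 5.35 in the outermost bins. The caller can use a motif when it places an event. The HOXC13 list carries a word for every event and the HOXC10 list none, and how far this moved the positions was not tested.

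Base composition differed in the same direction. The median GC content of the searched windows was 43.6% at HOXC10-alone, 41.6% at HOXC10 shared, 40.6% at HOXC13 shared and 37.6% at HOXC13-alone sites. At least 1 CpG was present in 64.3% of HOXC10-alone and 55.2% of HOXC13-alone windows. In windows under 35% GC, which held 2825 HOXC13-alone and 795 HOXC10-alone sites, TTTAT was present at 73.7% of HOXC10-alone and 90.2% of HOXC13-alone sites, a smaller gap than over all windows, and TTTAC at 29.8% and 53.8%. Within windows of 35 to 45% GC, TTTAT was present at 53.5% of HOXC10-alone and 78.4% of HOXC13-alone sites and TTTAC at 22.6% and 51.3%. In windows over 45% GC, TTTAT was present at 31.9% and 69.6% and TTTAC at 15.1% and 46.0%. At alone sites the TTTAT shares fell by under 5 points with rank. TTTAT was present at 45.4% of HOXC10-alone sites among the first 1000 events and at 42.6% among ranks 9001 to 10000, and for HOXC13-alone sites at 83.7% and 79.8%. At HOXC13 shared sites TTTAT went from 86.5% to 74.8% and TTTAC from 47.9% to 36.3% between these bins.

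Position relative to genes was similar in all classes. Introns of protein-coding genes held 42.0% of HOXC10-alone and 43.6% of HOXC13-alone sites, and intergenic sequence 52.7% and 50.9%. The median distance to a protein-coding TSS was 59.4 kb for HOXC10-alone, 52.6 kb for HOXC10 shared, 57.8 kb for HOXC13 shared and 49.8 kb for HOXC13-alone sites. Sites within 1 kb of any GENCODE TSS were few and slightly more common among shared sites. They made up 7.72% of HOXC10 shared and 6.02% of HOXC10-alone sites, a difference of -1.69 points (-2.74 to -0.68) for alone minus shared. For HOXC13 they made up 6.92% of shared and 4.92% of alone sites (-2.00 points, -3.36 to -0.80). Neither difference was stable. With lists of equal length the HOXC10 difference was -0.28 points, and within 5 kb of a TSS the HOXC13 difference turned to 0.97 points. Repeat-masked sequence lay at 839 HOXC13-alone sites (95% interval 9.53 to 10.8%) against 7.03 to 7.44% in the other classes. Over the chromosomes the shared fraction ran from 36.1% (chromosome 15) to 45.8% (chromosome 6) for HOXC10, and from 10.4% (chromosome X) to 22.1% (chromosome 4) for HOXC13.

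Signal was higher at shared than at alone sites for both factors, but the ranges overlapped widely. Signal here means the estimated ChIP read count of an event, divided by all aligned reads behind its list and given in reads per 1e6 (rpm). The median HOXC10 signal was 3.95 rpm at shared and 3.45 at alone sites, with quartiles of 2.93 to 6.22 and 2.76 to 4.84. On the log2 scale the medians differed by 0.20. The median HOXC13 signal was 10.9 at shared and 9.53 at alone sites, with quartiles of 7.88 to 17.3 and 7.36 to 14.2, and the medians differed by 0.19 on the log2 scale.

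A ratio of both signals exists only where both lists hold an event. There were 4782 such pairs of events with at least 1 member in its top list. The median log2 ratio of HOXC13 over HOXC10 rpm was -0.40, with quartiles of -1.47 and 1.51, and HOXC13 was higher in 43.0% of pairs. The value rests on which top list chose the pair. For the 3998 pairs with a top HOXC10 event the median was -0.78, for the 1753 pairs with a top HOXC13 event it was 2.09, and for the 969 pairs with both it was 1.37. Over all 8648 pairs of the full lists, where no top list entered, the median was -0.08. Scaling by the reads assigned to signal in place of all aligned reads moved the median of the 4782 pairs to -2.25, since the HOXC13 list had a signal fraction of 0.349 and the HOXC10 list 0.097. The sign of a single site's ratio is therefore relative to the depth scaling, while the order of sites is not.

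**Figure D3:**
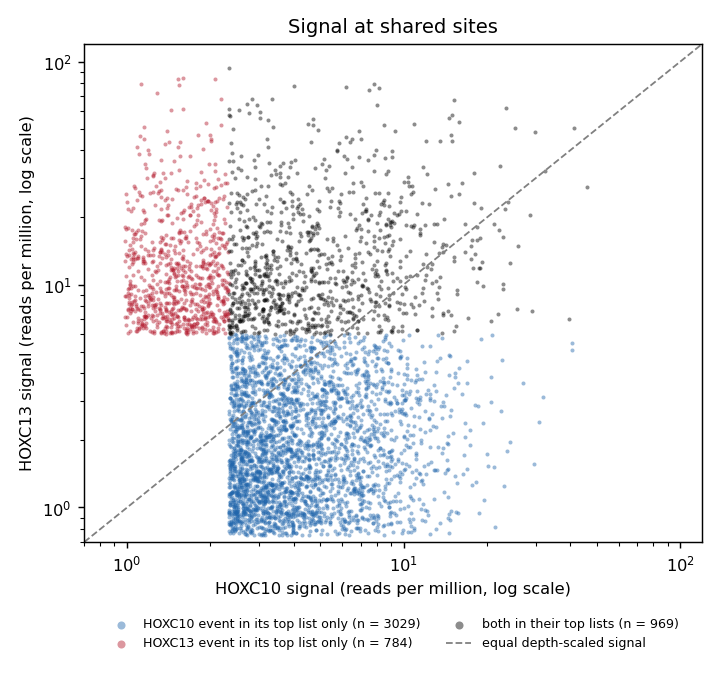
HOXC10 signal (x axis) and HOXC13 signal (y axis) in rpm on log scales at the 4782 shared pairs, coloured by which event was in its top list; the dashed line marks equal values. The empty lower left corner is where neither event was in its top list, and the 969 pairs in both top lists (black) lie mostly above the line.

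At the highest and at the lowest ratio, 1 factor was among its strongest events and the other near its calling limit. The highest ratio, 6.14, was in an intron of Adam12, with 79.1 HOXC13 and 1.12 HOXC10 rpm. The lowest, -4.71, lay 224 kb upstream of the TSS of Adgrl2, a latrophilin, with 0.821 HOXC13 and 21.4 HOXC10 rpm. Both windows held TTTAT and TTTAC.
Shared site in Adam12, highest HOXC13 over HOXC10 (chr7:133910016-133910116): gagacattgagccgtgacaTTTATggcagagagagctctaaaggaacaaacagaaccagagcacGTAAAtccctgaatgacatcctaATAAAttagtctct
Shared site upstream of Adgrl2, lowest HOXC13 over HOXC10 (chr3:149214201-149214301): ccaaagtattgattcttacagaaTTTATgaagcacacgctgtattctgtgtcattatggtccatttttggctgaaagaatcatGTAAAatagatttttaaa
The next highest ratios were 5.81 in an intron of Adamts18 and 5.77 in an intron of Mtus2. A ratio of -4.24 was found upstream of Pter, in a window that held neither TTTAT nor TTTAC. The HOXC13 event there had 89.8 reads, above the median of 80.8 for the full HOXC13 list.

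Across all 8648 pairs the ratio moved with the words, though by little beside its spread. Pairs with both TTTAT and TTTAC had a median log2 ratio of 0.21, with TTTAT without TTTAC -0.06, with TTTAC without TTTAT -0.12, and with neither -0.29. The quartiles of the first group were -0.73 and 1.42 and those of the last -1.14 and 0.61, so the groups overlapped. Split by ratio into 4 bins of 2162 pairs, TTTAC was present at 29.6% (median ratio -1.57), 29.4%, 31.6% and 37.7% (median ratio 1.91) of pairs, and TTTAT at 62.5%, 67.3%, 67.8% and 75.1%. Among the 969 pairs in both top lists the medians of the 4 word groups were closer, from 1.15 with neither to 1.44 with TTTAT without TTTAC.

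The other factors of the series had events at very different shares of HOXC10-alone and HOXC13-alone sites. The classes were chosen by HOXC10 and HOXC13 events, so a list that resembles the HOXC10 list differs between them in this direction. The gaps are therefore not independent of that choice. HOXC9, the thoracic factor, had an event within 100 bp at 92.4% (91.7 to 93.1%) of HOXC10-alone and 40.6% (39.5 to 41.7%) of HOXC13-alone sites, a difference of 51.8 points (50.6 to 53.1). At shared sites the share was 98.9% by HOXC10 and 98.3% by HOXC13 events. With only the top 10000 HOXC9 events it was 31.4% and 8.94% at the alone sites, a difference of 22.4 points. HOXD9 set the classes apart most among the full-length factors, with 92.3% of HOXC10-alone and 9.04% of HOXC13-alone sites, and HOXA9 had 92.7% and 24.1%. The central factors HOXC6 and HOXC8 had events at 51.0% and 78.9% of HOXC10-alone sites and at 2.46% and 8.42% of HOXC13-alone sites. HOXC8 was called in another run that did not include HOXC10 or HOXC13.

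HOXC13-alone sites were mostly without any other full-length factor, and HOXC10-alone sites almost never. None of HOXC6, HOXC8, HOXC9, HOXA9 and HOXD9 had an event at 4524 HOXC13-alone sites (54.8%), against 48 HOXC10-alone sites (0.792%). Among shared sites these were 0.102% by HOXC10 and 0.400% by HOXC13 events. The 5 lists held from 17898 (HOXC6) to 74067 events (HOXC9). Shares over the full HOXC10 and HOXC13 lists are not given, so these values describe the top lists only. They too are not independent of how the alone classes were chosen. All 5 had one at 46.1% of HOXC10-alone, 51.1% of HOXC10 shared, 36.2% of HOXC13 shared and 1.31% of HOXC13-alone sites. In this respect the values of HOXC13 shared sites lay nearer to those of HOXC10 sites than to those of HOXC13-alone sites. HOXC13 shared sites have a HOXC10 event by definition, so this likeness is built into the classes and is no separate result. Among the 1000 strongest HOXC13 events a HOXC9 event was present at 59.4% of the alone and 100% of the shared sites, and among ranks 9001 to 10000 at 31.9% and 97.0%.

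MEIS events in iHoxc10 cells were frequent at HOXC10 sites of both classes and rare at HOXC13-alone sites, which by definition lack a HOXC10 event. MEIS, a TALE cofactor, was assayed in 1 library from cells that expressed HOXC10 and no HOXC13 transgene. It had an event at 43.5% (42.3 to 44.8%) of HOXC10-alone, 40.2% of HOXC10 shared, 25.7% of HOXC13 shared and 0.630% (0.481 to 0.825%) of HOXC13-alone sites. Among the strongest 1000 HOXC10 events the alone sites had MEIS in 76.8% and the shared sites in 68.4%, and at ranks 9001 to 10000 in 29.4% and 22.8%. Across the 8648 pairs, MEIS was present at 42.0% of the 2162 with the lowest ratio and 16.0% of the 2162 with the highest. The median HOXC10 signal of these bins was 4.09 and 1.70 rpm, and its part in the difference was not tested. HOXC10 at day 4, 1 day later in Dox, had an event at 70.3% of HOXC10-alone, 81.0% of HOXC10 shared and 3.72% of HOXC13-alone sites. The low MEIS and day 4 shares at HOXC13-alone sites are not independent of how that class was chosen. No MEIS list from HOXC13 cells entered, so MEIS at these sites in such cells was not tested.

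**Figure D4:**
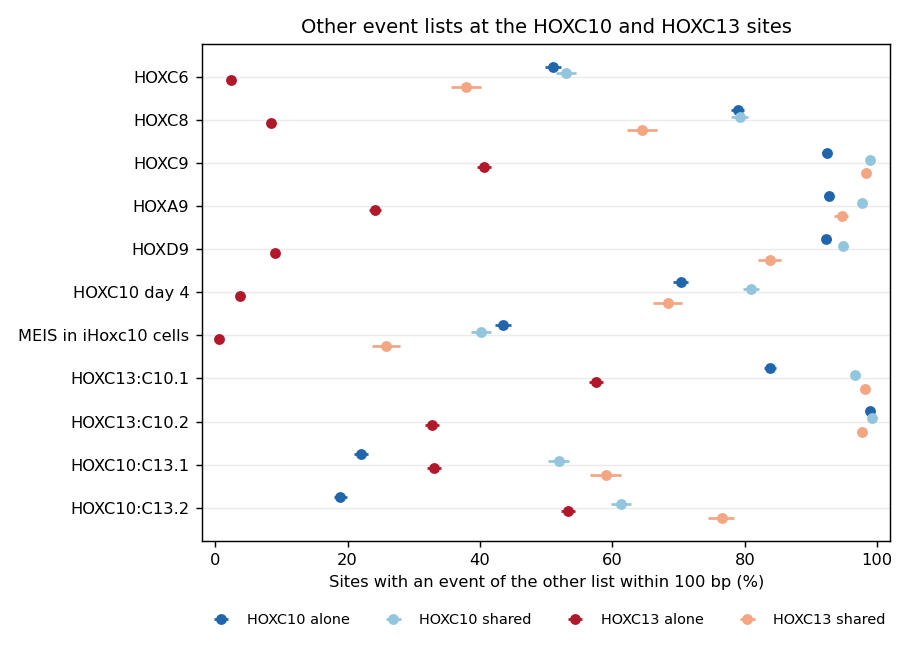
Share of sites with an event of another list within 100 bp (x axis, percent) for 11 lists (y axis) and the 4 classes; bars are 95% Wilson intervals, mostly smaller than the points. HOXC13-alone sites (dark red) lie furthest left for every list but HOXC10:C13.1 and HOXC10:C13.2, where HOXC10-alone sites (dark blue) do.

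Chimeras with the HOXC10 homeodomain end were found more often at HOXC10-alone than at HOXC13-alone sites. Those with the HOXC13 end were found more often at HOXC13-alone sites. The pair named HOXC13:C10 keeps the HOXC13 N-terminus in front of a HOXC10 DNA-binding end, which is longer in HOXC13:C10.2 than in HOXC13:C10.1, and the pair named HOXC10:C13 holds the opposite exchange. HOXC13:C10.2 had an event at 98.9% of HOXC10-alone and 32.7% of HOXC13-alone sites, and HOXC13:C10.1 at 83.9% and 57.5%. HOXC10:C13.2 had an event at 18.9% of HOXC10-alone and 53.3% of HOXC13-alone sites, a difference of -34.5 points (-35.9 to -33.0), and HOXC10:C13.1 at 22.0% and 33.0%. With only the top 10000 events of each chimera, HOXC13:C10.1 was at 15.2% of HOXC10-alone and 13.3% of HOXC13-alone sites, a far smaller gap. HOXC13:C10.2 was then at 48.7% and 3.13%, HOXC10:C13.2 at 0.347% and 12.6%, and HOXC10:C13.1 at 1.63% and 9.69%. Over the full lists HOXC13:C10.1 was also at more HOXC13-alone sites than either chimera with the HOXC13 end. The lists held from 61413 (HOXC10:C13.1) to 99228 events (HOXC13:C10.1), and the effect of length was not tested. The 4 chimeras were called in a run that also held HOXC10 and HOXC13 conditions.

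Each site was given to the protein-coding gene with the nearest TSS. HOXC10-alone sites fell to 2767 of 21728 genes, HOXC13-alone sites to 3756, and the 4782 shared pairs to 2435. Both alone classes were represented at 1481 genes, which is 53.5% of the HOXC10-alone genes and 39.4% of the HOXC13-alone genes. Counts per gene also depend on the stretch of genome that is nearest to it, which is given below for the extremes. Over the whole genome there were 2.30 HOXC10-alone and 3.13 HOXC13-alone sites per Mb.

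HOXC10-alone sites gathered most at Zfp608, a zinc finger gene on chromosome 18, with 39 HOXC10-alone, 31 shared and 12 HOXC13-alone sites. That was 30.4 HOXC10-alone sites per Mb over the 1.28 Mb nearest to it. The 39 sites had between 2.37 and 13.5 HOXC10 rpm and lay 0.628 to 632 kb from a TSS of the gene. They had a HOXC9 event in 34 and a MEIS event in 18 cases, beside 92.4% and 43.5% over all HOXC10-alone sites. Auts2, a gene of neuronal development, had 30 HOXC10-alone and 12 HOXC13-alone sites. The nuclear receptors Nr2f1 and Nr2f2 had 14 and 15 HOXC10-alone sites and 4 and 8 HOXC13-alone sites. Dach1, a transcriptional regulator of limb and eye development, had 18 and 3, the arrestin-domain gene Arrdc3 had 17 and 3, and Ythdf3, which encodes a reader of methylated RNA, had 14 and 0. Zfhx3, a homeobox zinc finger gene, had 20 and 11.

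The genes with the most HOXC13-alone sites included several that act in cell adhesion. Adgrl3 and Adgrl2, which encode latrophilins, had 21 and 17 HOXC13-alone sites against 5 and 7 HOXC10-alone sites. Flrt2, whose product is a ligand of latrophilins, had 20 against 4, and the teneurin gene Tenm3 had 20 against 8. Tenm4 had 16 of each class. These genes have long territories, 3.36 Mb for Adgrl3 and 3.19 Mb for Flrt2, which gives 6.25 and 6.28 HOXC13-alone sites per Mb, about the density of Auts2 with 6.19. Denser were Gm10306 with 16 HOXC13-alone sites in 0.611 Mb, and Lmo4 and Klf6 with 15 sites each and no HOXC10-alone site. Lmo4 encodes a LIM-only transcriptional regulator and Klf6 a zinc finger factor. The 15 Lmo4 sites had 6.39 to 18.0 HOXC13 rpm, and 7 of them had a HOXC9 event and 0 a MEIS event. Over all HOXC13-alone sites the shares were 40.6% for HOXC9 and 0.630% for MEIS, so these counts are not particular to the gene.

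The genes with the most shared sites also had alone sites of both factors. Robo2, the Slit receptor of axon guidance, had 27 shared sites and 19 of each alone class. Meis1, the cofactor gene itself, had 22 shared, 12 HOXC10-alone and 16 HOXC13-alone sites. Skap2, next to the HoxA cluster, had 16 shared sites in 0.377 Mb, and Zfp703 had 16.

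**Figure D5:**
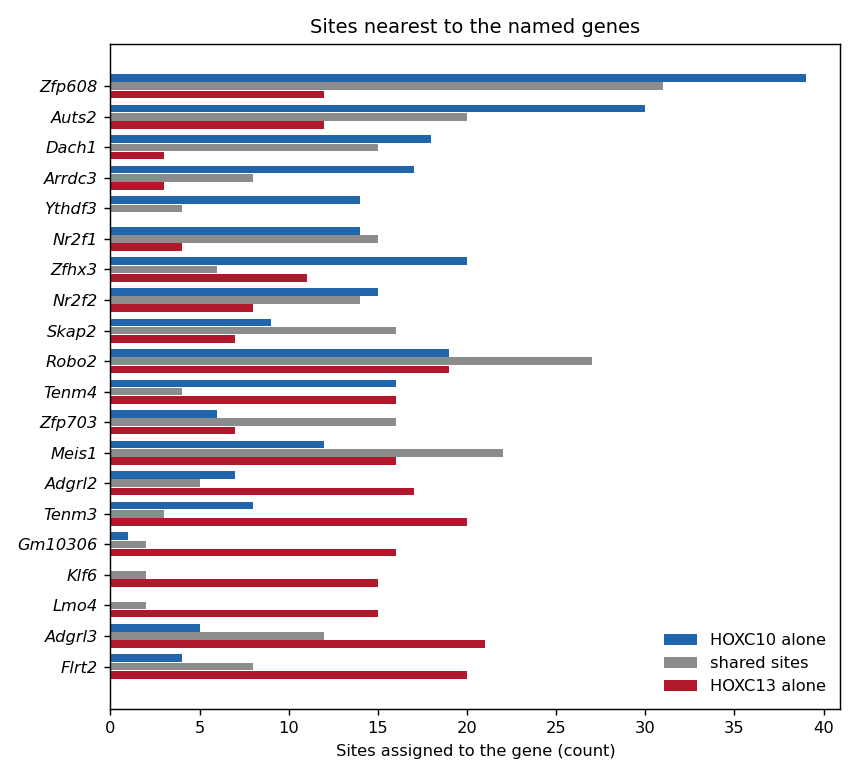
Number of sites (x axis) nearest to each named gene (y axis), with HOXC10-alone sites in blue, shared pairs in grey and HOXC13-alone sites in red; genes are ordered by HOXC10-alone minus HOXC13-alone sites. Zfp608 leads with 39 HOXC10-alone sites, and Adgrl3 and Flrt2 have 21 and 20 HOXC13-alone sites.

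Gene lists for spinal cord patterning took a larger share of HOXC10-alone than of HOXC13-alone sites. The 22 motor neuron and motor column genes, whose territories make up 0.238% of these chromosomes, held 64 HOXC10-alone sites (1.06% of the class), 34 HOXC13-alone sites (0.412%) and 52 shared pairs (1.09%). Nkx6-1, a motor neuron progenitor factor, had 9 HOXC10-alone and 2 HOXC13-alone sites, and Gfra1, a GDNF receptor of motor pools, had 7 and 2. Foxp1, which defines limb-level motor columns, had 7, 9 and 12 shared, and Isl1 had 9 and 10. The 33 spinal progenitor and interneuron genes (0.354% of the genome) held 68 HOXC10-alone sites (1.12%), 43 HOXC13-alone sites (0.521%) and 62 shared pairs (1.30%). Within that list Ebf1 and Ebf3 had 11 and 12 HOXC10-alone sites and 1 HOXC13-alone site each, Irx3 had 10 and 1, and Sox2 had 9 and 6. Gata3 went the other way, with 0 HOXC10-alone and 10 of the 43 HOXC13-alone sites.

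At the Hox clusters and the cofactor genes, shared pairs outnumbered the sites of either alone class. The 39 Hox genes, over 0.032% of the genome, took 47 shared pairs (0.983%), 25 HOXC10-alone sites (0.413%) and 16 HOXC13-alone sites (0.194%). Hoxc4 had 7 shared pairs and 4 HOXC10-alone sites, Hoxd3 8 and 3, and Hoxb3 5 and 2, and of these genes only Hoxb3 had a HOXC13-alone site, 1 in number. At Hoxc4 the 2 strongest HOXC10 events had 45.8 and 22.2 rpm, and the HOXC13 events paired with them had 27.5 and 34.2. At Hoxd3 the strongest HOXC10 event, 1737 bp from a TSS, had 25.6 rpm and the HOXC13 event at the same base had 7.75. The 9 TALE genes (0.133% of the genome) held 54 shared pairs (1.13%), 43 HOXC10-alone (0.71%) and 34 HOXC13-alone sites (0.412%), with 13 shared pairs at Meis2 and 10 at Pbx3.

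Retinoic acid genes had sites of every class. The 19 genes (0.103% of the genome) held 19 HOXC10-alone, 16 HOXC13-alone sites and 25 shared pairs, of which Rarb, a retinoic acid receptor, had 7, 2 and 11. Aldh1a2, which makes retinoic acid, had no HOXC10-alone site, 3 HOXC13-alone sites and 4 shared pairs. At Aldh1a2 the site 1601 bp from the TSS had 49.0 HOXC13 and 9.32 HOXC10 rpm, while a HOXC10 event 25947 bp from the TSS had 29.1 rpm and the HOXC13 event beside it had 7.63.

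Adhesion and guidance lists were close between the alone classes. Eph receptors and ephrins (22 genes, 0.521% of the genome) held 50 HOXC10-alone sites (0.825%) and 59 HOXC13-alone sites (0.715%), with Efnb2 at 5 and 14, Efna5 at 10 and 8, Epha4 at 11 and 7 and Epha7 at 8 and 8. Cadherins and protocadherins (24 genes) took a smaller share of both alone classes than of the genome (1.76%). They held 79 (1.30%) and 89 (1.08%), with Cdh2 at 13 and 8, Pcdh9 at 8 and 7, Pcdh7 at 9 and 9 and Pcdh15 at 5 and 10. Of the 11 lists, only the 40 Wnt pathway genes and the hair follicle genes took a larger share of HOXC13-alone than of HOXC10-alone sites. The Wnt genes had 13 HOXC10-alone (0.215%) and 35 HOXC13-alone sites (0.424%) over 0.256% of the genome, led by Tcf7l2, a Wnt effector, with 2 and 9. Lgr4 had 5 and 2, Fzd8 had 1 and 2, and Ror2 had 1 of each.

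Of the lists tied to the known roles of HOXC13, the limb and the caudal list took similar shares of both alone classes. The 23 distal limb and genital genes (0.409% of the genome) held 41 HOXC10-alone (0.677%) and 51 HOXC13-alone sites (0.618%), with Sall1 at 9 and 9, Epha3 at 6 and 6 and Gli3 at 2 and 5. The 21 axial elongation and caudal genes (0.0725% of the genome) held 15 (0.248%) and 16 (0.194%), where Sp8 had 8 HOXC10-alone and no HOXC13-alone site and Lin28b, a timing regulator, had 1 and 5. Cyp26a1, which degrades retinoic acid, had 1 and 3, and Wnt5a 0 and 3. Of the 20 hair follicle genes 19 were matched (0.0276% of the genome), and these held 4 HOXC13-alone sites and no other. The sites fell to Foxq1, Krt36, Krt83 and Krt84, with 1 each, and the Krt83 event, 87 bp from the TSS, had 24.9 HOXC13 rpm.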

How the data were processed

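ChIP-seq was deposited for 3 HOXC10 and 2 HOXC13 libraries at day 3. The authors aligned reads to mm10 with Bowtie 1.0.1 and called events with MultiGPS over pooled libraries, so each deposited list gives estimated counts of ChIP and control reads per event. The authors also deposited a log2 fold against the control library and, as a score used here for ranking in an alternative, a log2-transformed q-value. The lists further hold comparisons from edgeR 3.22.5 between conditions (log2 fold changes and p-values), which were not used. Groups came from the labels.

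Events on chromosomes 1 to 19 and X were ranked by estimated ChIP reads, which dropped 14 HOXC10 and 60 HOXC13 events, and the top 10000 were kept. The build was checked with the words deposited for HOXC13, all 115819 of which were found within 110 bp of their event on GRCm38. Genes and TSSs are those of GENCODE mouse release 21. Sequences were read from the RefSeq genome, GRCm38 (mm10), and sites in its lower-case letters count as repeat-masked. Motifs were searched on both strands within 50 bp. Genes with the most sites per class (8), the largest differences (5) and up to 4 genes per list were named, and 3 sites per class, of which a few are not reported here. The members, gene lists and comparisons were chosen with earlier results of these data known. Scripts in Python 3.11.15 with pandas 2.3.3, scipy 1.17.1 and pysam 0.24.0 were tested on simulated data. No p-value was computed.

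Depth ran from 5.04 to 31.0 M (1e6) reads per library. PCR reads without molecular identifiers are not independent molecules, and the intervals cover counting error only.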

Additional observations from a re-analysis of the deposited data

How the results depend on the processing

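The lists pool their libraries, so leaving out a library was not possible. No paired analysis was possible because the lists pool their libraries. Of the 36 alternatives, 35 kept the direction and 9 stayed within the interval of the reported value. The cause of the moves was not tested.

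The share of top HOXC10 events with a HOXC13 event was 45.1% for the top 5000, 34.3% at 50 bp, 43.2% at 200 bp, 18.4% with lists of equal length and 9.26% against the top 10000 of the other factor. In the same order, without equal length, the HOXC13 share was 20.2%, 14.8%, 19.5% and 9.67%. The median log2 ratio at shared sites was -2.25 when scaled by reads assigned to signal, -0.53 from the deposited log2 fold over control and -0.079 over all shared events. The TSS difference of HOXC10-alone minus shared sites was -3.24 points at 5 kb and -0.28 with lists of equal length, and that of HOXC13 turned to 0.97 points at 5 kb. The TTTAC difference was 19.7 points within 25 bp, 28.8 with lists of equal length and, in windows of 35 to 45% GC, chosen after seeing the data, 28.7. The TTTAT difference was 27.6, 29.6 and 24.9 points in these settings and 32.3 with the flanks subtracted. The HOXC9 difference was 22.4 points with the top 10000 HOXC9 events and 53.4 with lists of equal length. The signal difference of HOXC10 was 0.33 by the deposited log2 fold and 0.30 with lists of equal length, and that of HOXC13 0.085 by the deposited log2 fold.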

Other observations

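Teneurins, latrophilins and FLRT proteins bind each other across synapses. The 10 genes of these families were gathered after their values were seen, so their counts support nothing by themselves. They held 111 HOXC13-alone sites (1.35% of the class), 55 HOXC10-alone sites (0.908%) and 36 shared pairs (0.753%), over 0.684% of the genome. HOXC13-alone sites were more numerous at 5 of the genes, HOXC10-alone sites at 1, Tenm2, with 13 against 12, and the other genes had equal numbers, of which Tenm1 and Adgrl1 had none.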
